A study of Mus musculus with 4 samples.

Results

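Epidermal kallikreins are secreted serine proteases that cut the junctions between the outermost dead keratinocytes so that these can be shed, a process called desquamation. The genes described here are 10 named members of the 54532 rows of the count table, chosen by gene name. They comprise 8 kallikrein genes (Klk5, Klk6, Klk7, Klk8, Klk10, Klk11, Klk13 and Klk14), Spink5, which encodes the inhibitor LEKTI, and St14, which encodes the membrane protease matriptase. RNA was sequenced from epidermal stem cells (EpSCs), the keratinocyte progenitors of the skin, which were taken from C57BL/6 mice and cultured with HKGS-supplemented EpiLife medium. One group was treated with ALP at 30 μg/mL, and the control group with DMSO at 0.06%, both for 48 h. The title of the series speaks of a polysaccharide of Arctium lappa L., which ALP is taken to stand for. Each group held 2 libraries, named A and B only to tell them apart. The labels name no genetic change, age or sex, and do not say whether libraries came from separate animals or cultures or whether ALP cultures also held DMSO. P-values therefore measure only the spread between these libraries, which may be technical.

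In the epidermis kallikreins are made in the granular layer as inactive proenzymes and activate one another in a cascade. KLK5 and KLK7, with tryptic and chymotryptic activity, are the best known of the set and cut corneodesmosin and other junction proteins. LEKTI, the product of Spink5, binds and blocks them, and its loss causes Netherton syndrome, in which the barrier peels. Matriptase sits upstream and can activate kallikrein proenzymes. This is background from the epidermis as a tissue, whereas the values below come from cultured cells.

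Klk8 and St14 rose after ALP and Spink5 fell, by edgeR, DESeq2 and limma-voom alike. Klk13 was called lower by edgeR and limma-voom, and Klk5 by edgeR alone. DESeq2 and limma-voom, but not edgeR, called Klk7 lower. Klk10, the most abundant kallikrein transcript per length in all 4 libraries, stayed within a narrow range. Klk8 rose 2.48-fold and St14 rose 1.93-fold, while Spink5 was 2.85-fold lower. The 2 increases and 3 decreases called by edgeR are among 9 tested members. Over all 14056 tested genes, 18.0% were called higher and 12.9% lower by edgeR's quasi-likelihood test at an adjusted p under 0.05. Klk5 and Klk13 passed the filter on low counts only through the control libraries, so these counts do not support a statement about the group as a whole. Klk14 did not pass it. DESeq2's Wald test called 4 members, beside 32.0% of the genes to which it gave an adjusted p, and limma-voom called 5, beside 33.7%. The groups did not overlap in 8 of the 9 tested members, beside 75.7% of all tested genes, so that separation of the libraries by itself was common. The 4 libraries held between 15766244 and 17430345 counts. The calls rest on both controls: when one of them was dropped, edgeR called 0 genes in the table and so 0 members. The number of genes at an unadjusted p under 0.05 was then 3380 (control replicate A dropped) or 4131 (control replicate B dropped). Without the filter on low counts edgeR called 0 genes, with a smallest adjusted p of 0.0524 and 7068 genes at an unadjusted p under 0.05.

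The cells were checked against marker genes. Of 7 keratinocyte markers 7 were tested, and their summed level ranged from 29852 to 36206 CPM (counts per 1000000 counts of the library, scaled by the TMM method) in the ALP libraries against 48354 to 48537 CPM in the controls. Most of that sum is Krt5 and Krt14, and its members went both ways: edgeR called Itgb4 (log2 fold change 1.14) and Itga6 (0.38) higher and Trp63 (-0.61) and Col17a1 (-0.78) lower. Krt15 measured 58.4 and 1.75 CPM in ALP against 251 and 201 CPM in control, the largest difference of that list (log2 -2.90). It was not called by edgeR (adjusted p = 0.12) but by limma-voom (adjusted p = 0.0365), and the ALP libraries differed widely from each other. Markers of sweat or salivary gland, another source of kallikreins, summed to at most 1.87 CPM, with Klk1 and Scgb1b27 at 0 in every library. Immune markers summed to at most 0.80 CPM, with Cd3e and Cd207 at 0 throughout. All 5 melanocyte markers were tested and summed to between 53.7 and 64.7 CPM with ALP and to between 56.7 and 62.0 CPM without. Fibroblast markers (5 of 6 tested, Lum at 0) summed to 7.93 and 4.46 CPM in ALP against 17.5 and 13.6 CPM, and endothelial markers (2 of 4 tested, Emcn at 0) to 8.56 and 14.03 CPM against 5.66 and 6.68 CPM. The fibroblast difference lay mainly in Dcn, called lower at 3.07 and 0.517 CPM against 13.1 and 8.57 CPM, while Col1a1, Col1a2, Col3a1 and Pdgfra were not called. In the endothelial list Pecam1 was called higher (log2 fold change 1.21) and Tek lower (-2.63). Tek had 4 and 3 counts in ALP against 28 and 20 in control, and DESeq2 gave it no adjusted p. Both Tek and Dcn passed the filter on low counts only through the controls. The part of these differences in the results was not tested. In bulk RNA, fewer cells of a type and less RNA per cell cannot be told apart.

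The 8 kallikrein members lie side by side on chromosome 7 within 161 kb (43690418 to 43851181, GRCm38, plus strand), in the order Klk14, Klk13, Klk11, Klk10, Klk8, Klk7, Klk6 and Klk5, with Klk12 and Klk9 between them. RefSeq (GRCm38.p6) gives start-site windows for 8 members, none of them Spink5 or St14, and 10 windows in all. The stretches of 250 bases before the start are shown for Klk13 and Klk8, the kallikreins with the largest fitted decrease and increase, and for Klk7, the next gene after Klk8. Capitals mark CG dinucleotides.
Klk13, chr7:43712317-43712566, plus strand: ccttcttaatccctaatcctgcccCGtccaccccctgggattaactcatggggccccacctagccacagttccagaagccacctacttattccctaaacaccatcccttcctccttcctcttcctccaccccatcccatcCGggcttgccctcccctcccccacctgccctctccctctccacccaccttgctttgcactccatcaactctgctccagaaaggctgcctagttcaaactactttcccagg
Klk8, chr7:43797327-43797576, plus strand: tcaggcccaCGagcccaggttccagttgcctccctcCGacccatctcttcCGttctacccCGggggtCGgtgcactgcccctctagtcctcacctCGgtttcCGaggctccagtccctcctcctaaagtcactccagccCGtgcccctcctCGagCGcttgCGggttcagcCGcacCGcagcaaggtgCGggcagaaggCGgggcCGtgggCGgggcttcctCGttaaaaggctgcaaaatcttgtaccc
Klk7, chr7:43811044-43811293, plus strand: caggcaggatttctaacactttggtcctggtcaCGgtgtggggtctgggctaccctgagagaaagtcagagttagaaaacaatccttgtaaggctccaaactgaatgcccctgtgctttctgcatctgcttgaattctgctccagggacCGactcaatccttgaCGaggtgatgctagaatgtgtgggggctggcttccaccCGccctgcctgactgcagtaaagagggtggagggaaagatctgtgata
The Klk8 stretch holds 18 CG dinucleotides and is 65.2% G or C, whereas the Klk7 stretch holds 4 and the Klk13 stretch 2. The other 9 windows of the members hold between 0 and 7 and are between 50.4% and 57.6% G or C. Over all 32851 windows of the table the median was 6, and 78.3% of them held fewer than Klk8. The windows were also searched on both strands for TATAAA, the AP-1 motif TGANTCA and the grainyhead motif AACCGGTT, which are present in 12.4%, 6.75% and 0.116% of all windows. None of these letters occurs in the 10 member windows. The GC box GGGCGG, searched after these results were seen and present in 32.7% of all windows, begins 42 bases before the start of Klk8, and on the other strand 49 bases before that of Klk7. It also occurs 3 times in the 2 windows of Klk6, a gene whose groups overlapped, 166 bases (other strand) and 56 bases before one start and 136 bases before the other. These are matches of letters, not sites shown to be used.

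Klk8 encodes neuropsin, a tryptic kallikrein of the granular layer. Its counts were 677 and 746 with ALP and 276 and 344 without, which is 39.2 and 48.2 CPM against 15.6 and 19.6 CPM. Both ALP libraries lay above both controls, as in 38.2% of all tested genes. The log2 fold change was 1.31 ± 0.17 (SE, n = 2 per group; edgeR adjusted p = 0.0149). An uncharacterised noncoding gene on the opposite strand, 2310002F09Rik, covers 24.8% of the Klk8 exon bases. That gene had 47 and 33 counts in ALP against 30 and 43 in control, so it was far less abundant than Klk8 and did not separate the groups. The sources used here do not state whether counting used strand.

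Klk10 encodes a kallikrein-related protein first described as NES1, a gene lost in some tumours. It measured 45.0 and 47.1 CPM in ALP against 44.2 and 43.3 CPM in control, on 729 to 781 counts per library. Although the ALP values were both above the controls, the log2 difference was 0.07 ± 0.10 with a 95% interval from -0.16 to 0.31 (edgeR adjusted p = 0.582). A change of the size seen in Klk8 lies outside that interval.

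Klk7 encodes the chymotryptic enzyme of the stratum corneum. It had 111 and 47 counts in ALP against 226 and 172 in control, or 6.42 and 3.04 CPM against 12.8 and 9.82 CPM. Both ALP libraries were below both controls, as in 37.5% of all tested genes, and ALP replicate B was the lower one. The log2 difference of -1.25 ± 0.36 just missed the threshold by edgeR (adjusted p = 0.0504). Klk7 passed by limma-voom (adjusted p = 0.0365) and by DESeq2's Wald test (adjusted p = 0.0109). The authors' deposited table gives it an adjusted p of 0.0114, with the log2 fold change that DESeq2 gave here (-1.2537). The deposited value therefore adds no independent support. The level of Klk7 relative to its neighbour Klk8 was 0.133 and 0.0512 in ALP against 0.665 and 0.406 in control, as ratios of RPKM (counts per kilobase of gene length and per 1000000 counts of the library). The ratio was lower in both ALP libraries than in either control, which follows from Klk7 being lower and Klk8 higher in both. No test was made of such ratios, since with 2 libraries per group an exact permutation test cannot give a two-sided p below 0.333.

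Klk13 encodes a further tryptic kallikrein. It had 87 and 68 counts in the control libraries, 15 in ALP replicate A and none (0) in replicate B of that group, where a floor of 3 counts corresponds to 0.194 CPM. In CPM this was 4.93 and 3.88 in control against 0.868 in ALP replicate A. The fitted log2 fold change was -3.26 ± 0.74 (edgeR adjusted p = 0.0287). Its size rests on the library with no counts, being -2.32 without ALP replicate B. DESeq2's Wald test did not call Klk13 (adjusted p = 0.244).

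Klk5 encodes the tryptic protease that can start the cascade by activating itself, and its transcript was scarce. It had 5 and 6 counts in ALP against 17 and 20 in control. The exact 95% Poisson intervals, which cover counting error only, ran from 1.62 to 11.7 and from 2.20 to 13.1 in the ALP libraries and from 9.90 to 27.2 and from 12.2 to 30.9 in the controls. The groups did not overlap, but the counting intervals did. The log2 fold change was -1.63 ± 0.46 (edgeR adjusted p = 0.0482), and limma-voom did not call Klk5 (adjusted p = 0.0567). DESeq2 gave Klk5 no adjusted p. In the authors' deposited table its adjusted p was 0.204.

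Klk11, which encodes another tryptic member of the family, measured 2.14 and 2.84 CPM in ALP against 6.91 and 3.77 CPM in control. The ALP libraries were lower, and the 2 controls differed from each other by about as much as the group means did. The log2 difference of -1.10 ± 0.38 did not pass (edgeR adjusted p = 0.0729), and it was -0.61 without control replicate A. Klk6 had 25 and 11 counts in ALP against 28 and 14 in control, so that the groups overlapped (log2 difference -0.13 ± 0.53, 95% interval from -1.44 to 1.19, edgeR adjusted p = 0.875). That interval includes changes of more than 2-fold in both directions. Klk14, a tryptic kallikrein that also acts in desquamation, had 2 and 1 counts in ALP against 2 and 0 in control. A difference in Klk14 was not detectable at this depth, and 22.6% of its exon bases are shared with the opposite-strand gene 2310002F09Rik.

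**Figure D1:**
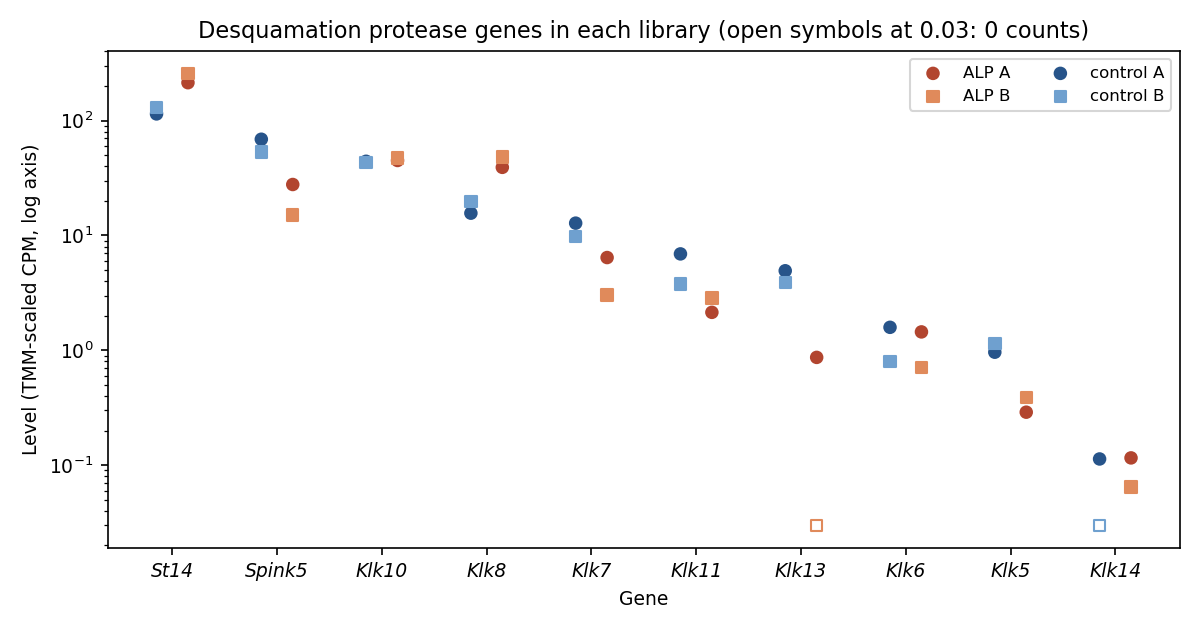
Level of each of the 10 genes in each library, in TMM-scaled CPM on a log axis. Blue symbols are control and red or orange symbols ALP libraries, circles A and squares B, and open symbols at 0.03 stand for 0 counts. St14 and Klk8 are higher in both ALP libraries, Spink5 lower, and Klk10 sits between 43.3 and 47.1 CPM in all 4.

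**Figure D2:**
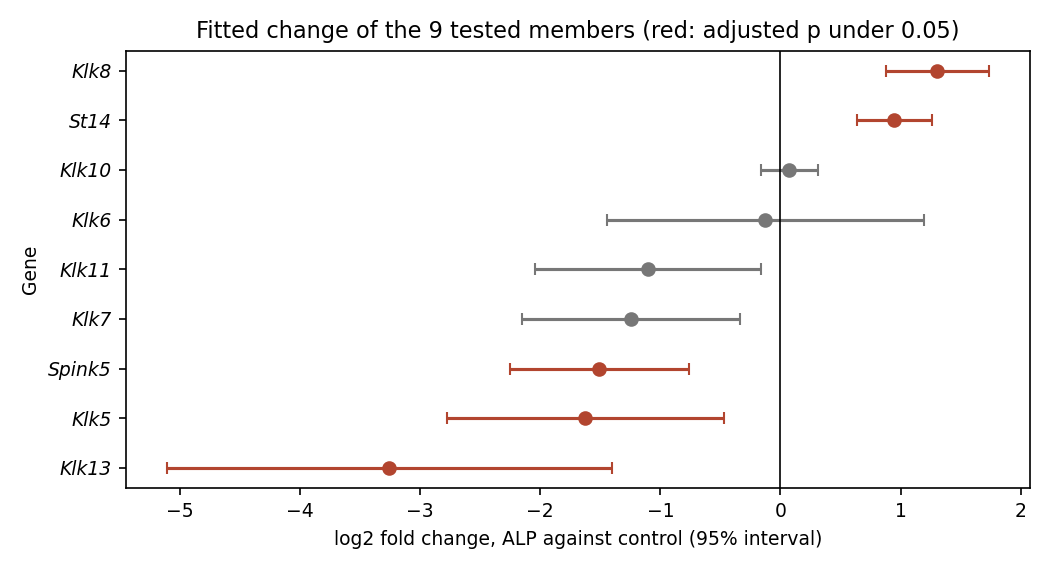
Fitted log2 fold change of ALP against control for the 9 tested genes with its 95% interval (edgeR), red where the adjusted p was under 0.05. The interval of Klk10 runs from -0.16 to 0.31 and that of Klk6 from -1.44 to 1.19, so the first excludes and the second includes a 2-fold change.

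Spink5 encodes LEKTI, the Kazal-type inhibitor of the kallikreins. It had 480 and 233 counts in ALP against 1215 and 935 in control, which is 27.8 and 15.1 CPM against 68.8 and 53.4 CPM. Both ALP libraries lay below both controls, and the ALP libraries differed from each other, with log2 differences from the control mean of -1.14 in replicate A and -2.02 in replicate B. The fitted log2 fold change was -1.51 ± 0.30 (SE, n = 2 per group; edgeR adjusted p = 0.0212). DESeq2 and limma-voom also called Spink5. The gene lies on chromosome 18 (43963235 to 44022501, GRCm38, plus strand).

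St14 encodes matriptase, which lies on chromosome 9 (31089402 to 31131853, GRCm38, minus strand). It had 3695 and 3988 counts in ALP against 2019 and 2282 in control, or 214 and 258 CPM against 114 and 130 CPM. The libraries of the groups were well apart. The log2 fold change was 0.95 ± 0.13 (edgeR adjusted p = 0.0149). In relation to Spink5, the RPKM of St14 was 1.04 and 1.53 times as high in the control libraries and 4.82 and 10.7 times as high in the ALP libraries. With St14 higher and Spink5 lower in both ALP libraries, these ratios had to move the same way in both. The gap between the 2 ALP libraries was wide.

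Levels of different genes are compared on the RPKM scale, which divides by gene length. In control, Klk10 was highest at 32.2 ± 0.610 RPKM (mean ± SD, n = 2), followed by St14 at 16.2 ± 1.44, Spink5 at 12.9 ± 2.35 and Klk8 at 11.6 ± 1.82. St14 and Spink5 differed by less than the sum of their SDs, and the libraries of Spink5 and Klk8 overlapped. Klk7 came next at 6.04 ± 1.15 RPKM, then Klk11 at 3.68 ± 1.54 and Klk13 at 1.94 ± 0.332. Klk5, at 0.796 ± 0.0931, and Klk6, at 0.798 ± 0.375 RPKM, could not be ordered, and Klk14 was lowest with at most 0.0904 RPKM.

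After ALP the order at the top was Klk10 at 33.1 ± 0.855 RPKM, St14 at 30.4 ± 3.79 and Klk8 at 28.0 ± 3.89, and the libraries of neighbours in this order overlapped. Spink5 followed at 4.42 ± 1.89 RPKM, with values overlapping those of Klk7, at 2.47 ± 1.26, and the range of Klk7 overlapped that of Klk11, at 1.67 ± 0.322. Klk6 measured 0.705 ± 0.344, Klk5 0.250 ± 0.0496 and Klk13 0.187 ± 0.265 RPKM. Klk14 was at most 0.0903 RPKM.

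The summed level of the 8 kallikreins was somewhat higher in both ALP libraries, and its makeup shifted. The sum was 58.6 and 55.6 RPKM in the control libraries and 64.1 and 68.7 RPKM in the ALP libraries. Klk10 and Klk8 together made up 73.3% and 80.4% of it in control and 90.0% and 93.8% in ALP. Klk8 alone went from 17.6% and 23.1% to 39.3% and 44.7%, while the other 6 kallikreins, without Klk10 and Klk8, summed to 15.7 and 10.9 RPKM in control against 6.44 and 4.27 RPKM in ALP. Set against the kallikrein sum, Spink5 stood at a ratio of 0.249 and 0.202 in control and of 0.0898 and 0.0450 in ALP. Against only Klk5, Klk7 and Klk14, which LEKTI is best known to inhibit, the ratio was 1.90 and 1.85 in control and 1.57 and 1.62 in ALP. The summed RPKM of these genes was mostly Klk7, at 6.85 of 7.67 and 5.23 of 6.09 in control. In ALP, Klk7 was 3.36 of 3.67 and 1.57 of 1.91 RPKM. Both ratios were lower in both ALP libraries, the first by more than the second. The first had to be lower, since Spink5 was lower and the kallikrein sum higher in both. The ratios compare transcripts per length, not proteins or activity.

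**Figure D3:**
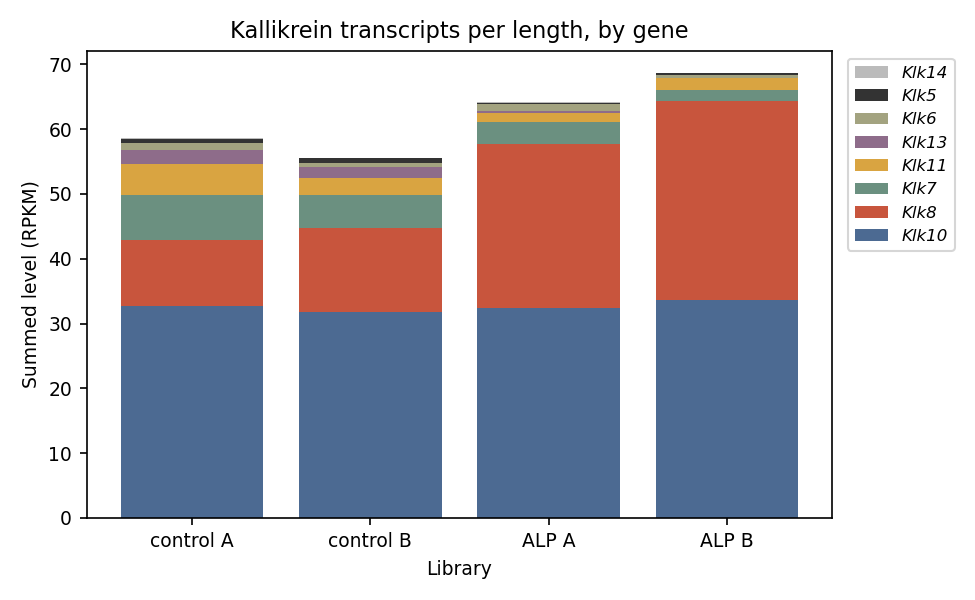
Stacked RPKM of the 8 kallikrein genes in each library, one colour per gene. The Klk10 block is nearly the same height in all 4 bars, the Klk8 block grows from between 10.3 and 12.9 RPKM in control to between 25.2 and 30.7 RPKM in ALP, and the Klk7, Klk11, Klk13 and Klk5 blocks are smaller in both ALP bars than in either control bar.

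Along the cluster, Klk8 rose by edgeR, DESeq2 and limma-voom. Klk13 was called lower by edgeR and limma-voom and Klk5 by edgeR alone, and both passed the filter on low counts only through the controls. The other tested genes between them did not pass by edgeR, though DESeq2 and limma-voom called Klk7 lower. The table holds 26 kallikrein genes on chromosome 7. Klk9, between Klk10 and Klk8, measured 1.04 and 1.16 CPM in ALP against 1.64 and 1.54 CPM in control, a log2 difference of -0.53 ± 0.33 that missed the threshold (edgeR adjusted p = 0.252). The Klk8 gene ends 7467 bases before Klk7 begins. Of the 18 kallikrein genes that are not members, Klk9 was the one with enough counts to be tested. Klk12 had 30 counts over the 4 libraries, Klk4 had 3 and Klk15 had 0. Of the 14 genes of the Klk1 and Klk1b group, the glandular kallikreins, 13 had 0 counts in every library and Klk1b4 had 2 counts in all. The Klk1b genes are close copies of one another, and the sources used here do not state how reads that fit several of them were counted.

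**Figure D4:**
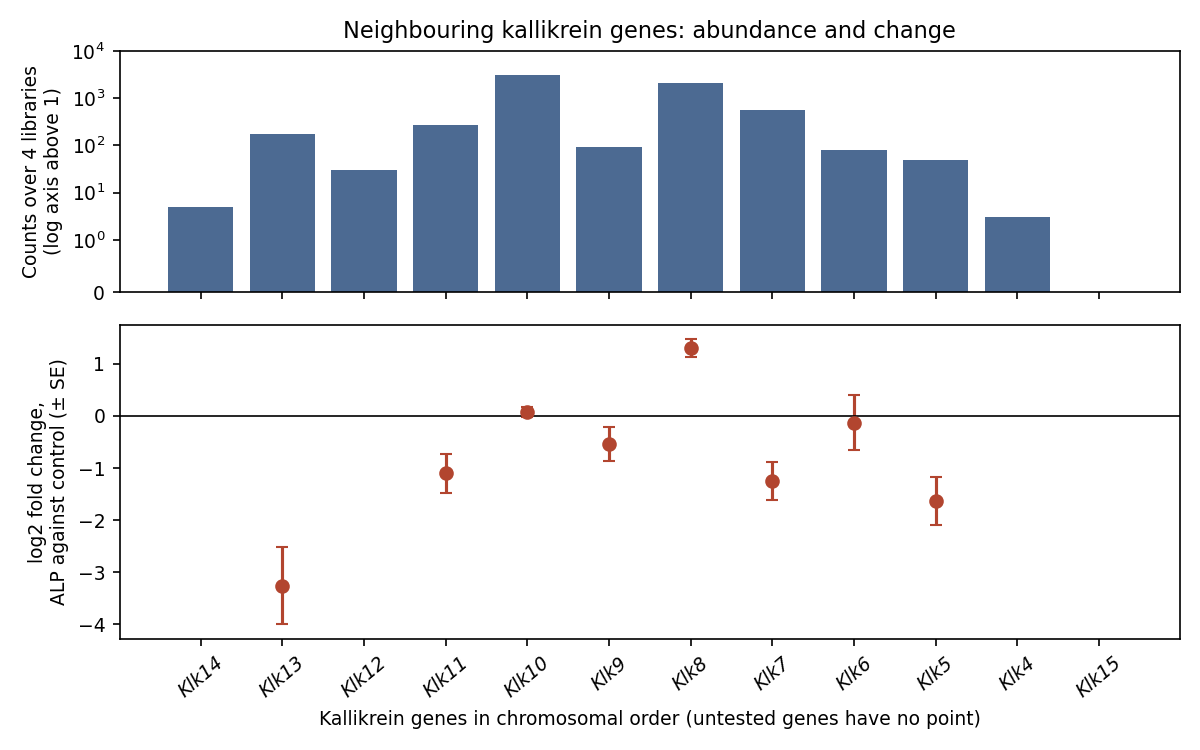
Kallikrein genes from Klk14 to Klk15 in chromosomal order. The upper panel gives counts summed over the 4 libraries, on an axis that is logarithmic above 1, and the lower panel the log2 fold change with its SE for tested genes. Klk8 stands at 1.31, between Klk9 at -0.53 and Klk7 at -1.25.

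The genes around these proteases were taken from lists of known function, 86 genes in all. Of these 49 were tested, 5 were called higher and 16 lower by edgeR, and the counts of each list below stand beside 18.0% higher and 12.9% lower over all tested genes. DESeq2 called 5 higher and 18 lower, and limma-voom 5 higher and 28 lower. Of the 12853 genes to which DESeq2 gave an adjusted p, it called 2366 higher and 1753 lower. Of 14056 genes, limma-voom called 2624 higher and 2117 lower. The median log2 fold change of the 49 list genes by edgeR was -0.64, against -0.0029 over all tested genes. Among 6 tested serine proteases listed around matriptase, most of them membrane-bound, 1 rose and 1 fell (median -0.66) by edgeR. DESeq2 also called 1 higher and 1 lower, and limma-voom 1 higher and 3 lower. Prss22, which encodes tryptase epsilon, a secreted enzyme, rose by 3.18 ± 0.41 on the log2 scale, from 1.25 and 2.40 CPM in control to 12.3 and 20.9 CPM in ALP. Prss8, which encodes prostasin, a partner of matriptase in the epidermis, fell by 0.86 ± 0.22, from 15.9 and 14.7 CPM to 9.89 and 6.85 CPM. The transcripts of matriptase and prostasin therefore moved in opposite directions. Prss8 shares 6.59% of its exon bases with Kat8 on the opposite strand.

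Of 4 tested further inhibitors of serine proteases, 1 rose and 2 fell (median -0.26). Slpi, which encodes the secretory leukocyte protease inhibitor, also known to block KLK7, rose by 1.10 ± 0.23 on the log2 scale to 17.5 and 24.8 CPM from 8.72 and 10.9 CPM. Spint2 and Spint1 encode HAI-2 and HAI-1, the membrane-bound inhibitors of matriptase. Spint2 fell by 0.50 ± 0.09, from 301 and 295 CPM to 220 and 201 CPM, whereas Spint1 measured 74.0 and 68.9 CPM in ALP against 69.9 and 74.3 CPM in control and overlapped (log2 difference -0.01 ± 0.09, edgeR adjusted p = 0.927). Wfdc5, of the whey acidic protein family, had 0 and 1 counts in ALP against 17 and 14 in control. That is 3.46% of the control level, with an exact 95% counting interval from 0.0850% to 20.8%, and edgeR called it lower (adjusted p = 0.0169). Wfdc5 passed the filter on low counts only through the controls, and DESeq2 gave it no adjusted p.

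Of 9 tested substrates and receptors, 1 rose and 2 fell (median -1.61) by edgeR, and limma-voom called 5 lower. Cdsn, which encodes corneodesmosin, the junction protein that KLK5 and KLK7 cut, fell by 2.05 ± 0.24 on the log2 scale. Flg, the gene of profilaggrin, had 16 and 2 counts in ALP against 112 and 83 in control and fell by 3.33 ± 0.57. Like Wfdc5, Flg passed the filter on low counts only through the controls. The log2 fold change of Flg was -5.35 when ALP replicate A was dropped and -2.56 when replicate B of that group was dropped. F2rl1, which encodes PAR2, the receptor that kallikreins and matriptase can activate by cleavage, rose by 1.20 ± 0.18, from 101 and 138 CPM to 248 and 301 CPM. The desmosomal cadherin genes Dsg1b, at 37.3 and 10.02 CPM in ALP against 77.9 and 69.7 CPM in control, and Dsc1 did not pass by edgeR (adjusted p = 0.0697 and 0.0762) or DESeq2 (adjusted p = 0.13 and 0.16) but by limma-voom (adjusted p = 0.0324 and 0.0386). Dsg1a measured 76.8 and 3.23 CPM in ALP against 264 and 205 CPM in control. It did not pass by edgeR (adjusted p = 0.141) or DESeq2 (adjusted p = 0.242) but by limma-voom (adjusted p = 0.0447). Desmoglein 1 genes are close paralogs, and their counts are uncertain. Tslp, of the same list, went the other way, at 18.7 and 22.4 CPM in ALP against 15.5 and 12.5 CPM in control. It did not pass by edgeR (adjusted p = 0.0607), DESeq2 (adjusted p = 0.0653) or limma-voom (adjusted p = 0.053).

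Among 12 tested other proteases of cornification and their inhibitors, 1 rose and 4 fell (median -0.48). The 4 that fell were Asprv1, a retroviral-like protease gene of the granular layer, by 1.71 ± 0.34 on the log2 scale, Cst6, the cystatin M/E gene, by 1.70 ± 0.30, Csta1, of the cystatin A family, by 1.86 ± 0.49, and Ctsh, the cathepsin H gene, by 0.49 ± 0.10. Ctsl, the cathepsin L gene, rose by 0.57 ± 0.14. Csta1 belongs to a group of close copies, so that its count is uncertain, and DESeq2 did not call it (adjusted p = 0.0514). Without ALP replicate A the log2 fold change was -2.36 for Asprv1 and -2.97 for Csta1, and without ALP replicate B it was -1.24 for Csta1. Casp14, the caspase of the cornifying layer, measured 16.7 and 10.5 CPM in ALP against 25.7 and 22.0 CPM in control and did not pass by edgeR (adjusted p = 0.054), whereas DESeq2 (adjusted p = 0.0163) and limma-voom (adjusted p = 0.0392) called it lower.

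Of 10 tested genes listed as regulators of late epidermal differentiation 6 were called lower and 0 higher (median -0.66), beside 12.9% called lower of all tested genes. Trp63, counted among these 6, is also in the list of keratinocyte markers above. By edgeR, 0 of these 10 genes had an unadjusted p under 0.05 in the upward direction, and limma-voom and DESeq2 called 0 higher too. Rora, the gene of a nuclear receptor, fell by 1.505 ± 0.30 on the log2 scale and Cebpa, of a C/EBP factor, by 1.45 ± 0.39 (-2.23 without ALP replicate A). Vdr, the vitamin D receptor gene, fell by 0.65 ± 0.17, Trp63, the gene of the epidermal master factor p63, by 0.61 ± 0.14, and Gata3 by 0.68 ± 0.19. Grhl1, of the grainyhead family, was the sixth, called by edgeR (adjusted p = 0.0491) and not by DESeq2 (adjusted p = 0.0664). Grhl3 measured 26.8 and 18.5 CPM in ALP against 23.9 and 24.96 CPM in control, and the groups overlapped.

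The differentiation state of the cultures is given beside these values. Lor, the loricrin gene, fell by 2.55 ± 0.25 on the log2 scale and Ivl, the involucrin gene, rose by 0.92 ± 0.24. Krt1 measured 663 and 19.7 CPM in ALP against 2511 and 2086 CPM in control, and Krt10 150 and 5.04 CPM against 669 and 545 CPM. Neither passed by edgeR (adjusted p = 0.164 and 0.125), limma-voom called Krt10 (adjusted p = 0.0423), and in both the 2 ALP libraries lay further apart than those of Spink5 or Klk7. The basal keratin genes Krt5 and Krt14 did not pass by edgeR (adjusted p = 0.0719 and 0.0982), with log2 differences of -0.64 and -0.58. DESeq2 (adjusted p = 1.7e-05 and 0.000697) and limma-voom (adjusted p = 0.0152 and 0.0254) called both lower. Of the 7 tested differentiation genes edgeR called 1 lower, DESeq2 3 and limma-voom 4. Cnfn, the cornifelin gene, did not pass either (adjusted p = 0.0608). The part of differentiation in the changes of the kallikreins was not tested.

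**Figure D5:**
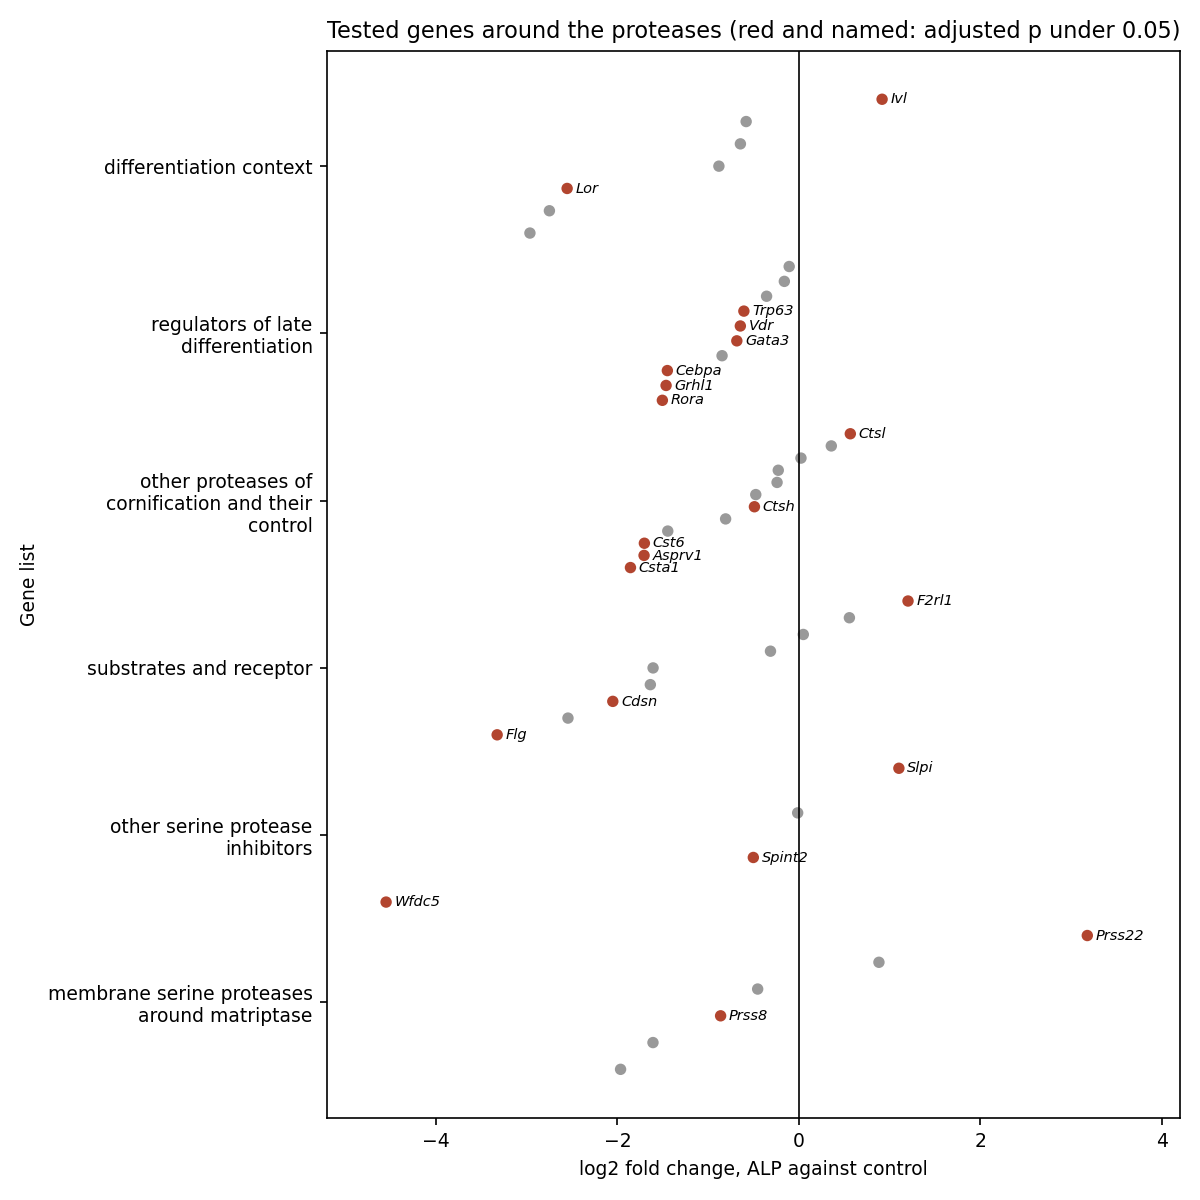
Log2 fold change of ALP against control for each tested gene of the 6 lists around the proteases, with called genes in red and named, and uncalled genes in grey. Prss22 lies furthest to the right at 3.18 and F2rl1 and Slpi at 1.20 and 1.10. The 10 genes listed as regulators of late differentiation are plotted below 0, including the 4 that were not called.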

How the data were processed

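Total RNA of EpSCs was sequenced in 2 ALP and 2 control libraries. The authors deposited 1 table with raw counts per gene. Its 4 columns of deposited FPKM were not used, and in place of them, other than planned, levels per length (RPKM) were computed from counts, deposited gene length and library total. Another alternative, added after seeing the data, used TMM-scaled totals. HISAT2 2.0.5 and featureCounts 1.5.0-p3 are named, without their roles, in the submitters' processing notes, which give the build as GRCh38. The gene identifiers are mouse ones, and 99.8% of the 54532 occur in GENCODE M21, 98.3% of these with the same GRCm38 coordinates. The authors' deposited table also holds log2 fold changes and p-values, whose test the sources used here do not name. Its log2 fold changes for Klk5 (-1.6374), Klk7 (-1.2537) and Klk8 (1.3112) equal those of DESeq2 here to the digits given. The normalized signal means, which the authors also deposited, were not used.

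Column numbers do not match the labels, so columns were assigned to groups only. Counts were fitted in R 4.3.3 with edgeR 4.0.16 (filterByExpr, minimum count 10 and total 15, TMM, glmQLFit in its bias-adjusted form, glmQLFTest, two-sided, group alone), with Benjamini-Hochberg adjustment over all tested genes and a threshold of 0.05. The fit has 2 residual degrees of freedom. SE is the log2 fold change divided by the root of F, and intervals are 95%. Alternatives were DESeq2 1.42.0, limma 3.58.1, other scaling, no filter, the older form of the test (added after seeing the data) and each library left out. Scripts were tested on simulated data. Members and lists were chosen with earlier results of these data known. All members are named, then up to 5 called genes per list by p, and the differentiation genes whatever their result. Genes named beyond this were chosen after their values were seen. They are Grhl1, the sixth called of its list, and the uncalled genes Spint1, Dsg1a, Dsg1b, Dsc1, Tslp, Casp14, Grhl3 and Klk9.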

Additional observations from a re-analysis of the deposited data

How the results depend on the processing

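Without the low-count filter edgeR called 0 genes higher and 0 lower, so also 0 members and 0 genes of the lists, with a smallest adjusted p of 0.0524 and 7068 genes at an unadjusted p under 0.05. With single libraries left out, between 0 and 3872 genes were called higher and between 0 and 3646 lower, between 0 and 2 members higher and between 0 and 4 lower, and between 0 and 7 list genes higher and between 0 and 35 lower. The counts of 0 came without either control library, the highest whole-table counts without ALP replicate A. Limma-voom called 28 list genes lower against 16 by edgeR. In the lower members the tools differed: edgeR called Spink5, Klk13 and Klk5, limma-voom Spink5, Klk13 and Klk7, and DESeq2, which gave Klk5 no adjusted p, Spink5 and Klk7. Klk6, at -0.75 without ALP replicate A, changed sign, to 0.29 without ALP replicate B and 0.44 without control replicate A. Of 34 named genes with a fit, 33 kept their side of the threshold with DESeq2 size factors and 32 with the older form of the edgeR test. With limma-voom 29 did so, with DESeq2's Wald test 27, and without the low-count filter 9. A gene without an adjusted p was taken as not called. Levels per length moved by less than 1 SD with TMM-scaled totals. Where a group kept 1 library, that library is assumed to vary like the other group. The causes were not tested. Klk5, Klk6 and Klk14 had at most 28 counts in any library. Klk13 had 15 and 0 counts in ALP against 87 and 68 in control. No paired analysis was possible because the columns of the 2 groups share only 1 replicate number, and these numbers differ from those of the labels.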
